A study of Mus musculus with 16 samples.

Results

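PolyA RNA carried by exosomes was compared with polyA RNA of the cells that released them, in the mouse stromal line AFT024. The comparison uses 4 of the 16 samples of the series, 2 labelled as AFT024 exosomes and 2 as AFT024 cells, chosen by their labels. Both groups share the same origin: the AFT024 line, derived from fetal liver of C57BL/6 mice at 14.5 dpc (days post coitum) and labelled supportive of hematopoietic stem and progenitor cells (HSPC). The remaining samples are the small RNA libraries and the polyA libraries of a second stromal line from the same tissue, strain and age, BFC012, which is labelled as not supportive. Several exosome RNA extractions were pooled and then split into technical sequencing runs, and each group is deposited as 1 merged column. Each difference below therefore sets 1 merged exosome library against 1 merged cell library of 1 line, there is no replicate error, and no test between groups was made. Neither the medium and its serum nor the way the exosomes were isolated is stated in the labels.

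Exosomes are small vesicles that form inside endosomes and are shed when these fuse with the plasma membrane. They carry proteins and RNA of the cell of origin and can pass them to neighbouring cells. Their RNA is usually a selected sample of the RNA of the cell. Stromal cells of the fetal liver form the niche in which blood stem cells expand before birth, through secreted factors, matrix and direct contact.

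The AFT024 exosome library held 9038471 reads in 17207 genes and the AFT024 cell library 39385534 reads in 20211 genes. Values are given as whole reads, as RPM (reads scaled to a library of 1000000 reads, not per length) or as a read ratio of exosomes over cells. The ratio is scaled by the median of ratios of the 16224 genes with reads in both libraries, which multiplies the ratio of RPM by 1.272, and an interval behind it is an exact Clopper-Pearson 95% interval that covers counting error only. A floor of 3 reads corresponds to 0.332 RPM in exosomes and 0.0762 RPM in cells. With 5 RPM or more in at least 1 library, 10513 of 43626 genes entered the comparison, 409 of them through the exosome library alone and 994 through the cell library alone. A gene that passed through 1 library alone has the higher RPM in that library by the filter itself. Of the 10513 genes, 1949 (18.5%) were higher in exosomes by 2-fold or more and 3262 (31.0%) were lower, and the median gene stood at a log2 ratio of -0.39. This split depends on the scaling: it was 1454 higher and 4346 lower with library size, and 2663 higher and 2167 lower when the median of ratios was taken over the genes past the filter alone, a choice made after the values were seen. At 4-fold, 817 genes (7.77%) were higher and 1013 (9.64%) lower, and at 16-fold 174 and 94.

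Cell identity was read from marker lists. Of 21 stromal and fibroblast markers 15 passed the filter, with 6357 RPM summed in exosomes and 7505 RPM in cells. Of the 15, 3 were higher in exosomes and 9 lower, the median log2 ratio being -1.53, and Ddr2, a collagen receptor, alone gave 3512 RPM of the exosome sum. Vim, the intermediate filament of mesenchymal cells, had 9690 reads in exosomes and 102047 in cells. Of the defining stromal markers, Thy1 had 0 reads in exosomes and 1 in cells, and Lum had 0 in both. None of 15 erythroid, 22 leukocyte, 16 hepatocyte and 12 epithelial markers passed the filter in these libraries, and their summed levels were 1.77, 7.08, 3.87 and 6.53 RPM in exosomes against 3.45, 6.93, 2.79 and 3.88 RPM in cells. Of 13 endothelial markers 2 passed, with 11.5 RPM summed in exosomes and 28.7 RPM in cells, and of 11 platelet and megakaryocyte markers 3 passed, with 37.6 and 39.7 RPM. Alb, the albumin gene that defines hepatocytes, had 0 reads in both libraries. The libraries thus hold the RNA of a mesenchymal line with few reads of blood or liver cells. In such bulk libraries, fewer vesicles with a transcript and fewer copies per vesicle cannot be told apart.

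**Figure D1:**
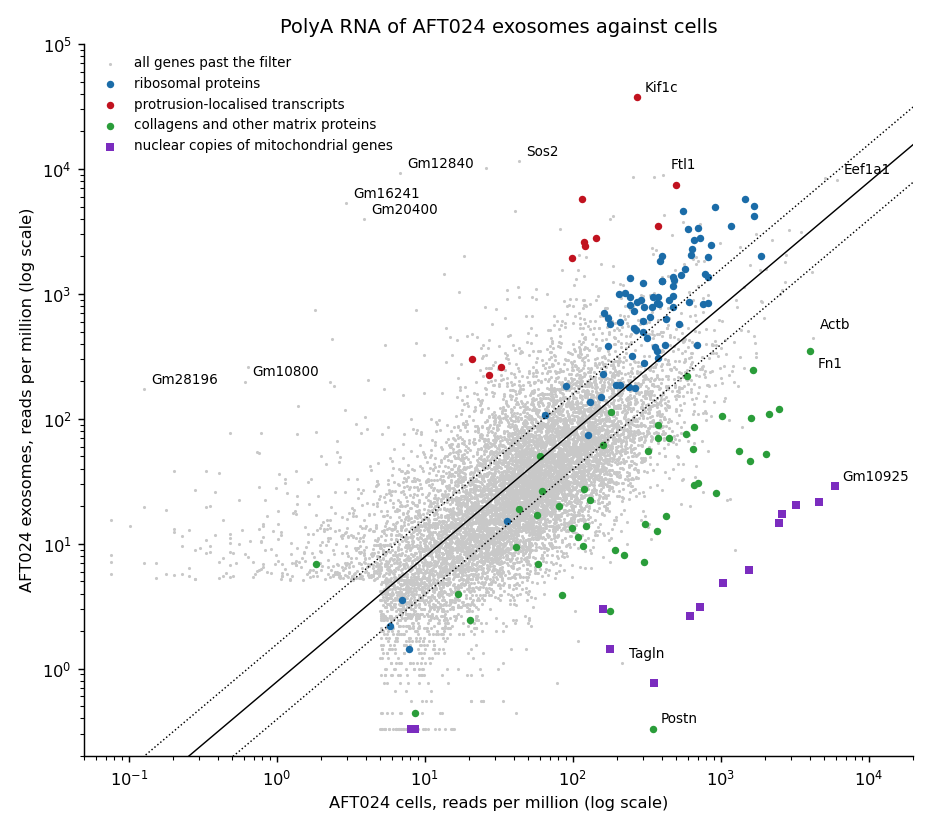
Each point is a gene past the filter, with its level in AFT024 cells on the x axis and in AFT024 exosomes on the y axis, both in RPM on log scales. The solid line marks a scaled ratio of 1 and the dotted lines 2-fold, values under 3 reads are drawn at that floor, Kif1c and Sos2 lie far above the lines, and nuclear copies of mitochondrial genes and matrix genes lie below them.

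Reads that match mitochondrial genes were scarce in the exosomes. Mitochondria keep their own genome, which encodes subunits of the respiratory chain, and old insertions of it lie in the nuclear chromosomes as pseudogenes. All 37 mitochondrial genes stand at 0 reads in the deposited tables, but 14 nuclear copies that match 11 of them by at least 80% identity over at least 80% of their length held reads, and 10 of the 14 match at 95% or more. A read from the mitochondrial RNA and a read from such a copy often cannot be told apart, as the stretch shared by Gm10925, a pseudogene at chr1:24613974-24614651, and mt-Atp6, a subunit of the ATP synthase, shows. It is printed 5′ to 3′ from GRCm38 (mm10), from chr1:24614292-24614351 on the minus strand and from chrM:8227-8286 on the plus strand, and no base differs.
Gm10925: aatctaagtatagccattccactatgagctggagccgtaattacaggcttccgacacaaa
mt-Atp6: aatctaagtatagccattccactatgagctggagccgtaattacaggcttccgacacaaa

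Gm10925 had 262 reads in exosomes and 231075 in cells, where it was second only to Eef1a1 in reads. It was 159-fold lower in exosomes, with a read ratio of 0.00628 (0.00555 to 0.00709). Gm13340, which matches mt-Co1 of cytochrome oxidase at 97.6% identity, had 197 reads in exosomes and 181445 in cells. Gm28437, identical to mt-Co3 of the same complex, had 186 and 127698 reads. Gm10222, identical to mt-Nd4l of the first respiratory complex, had 7 and 14023 reads. Together the 14 copies took 2.34% of the reads of cells and 0.0126% of those of exosomes, 923062 against 1134 reads, which is 147-fold lower after scaling. All 14 were lower, with log2 ratios from -8.50 to -4.34 and a median of -7.19, the highest of them set by the floor because Gm11408, which matches mt-Nd6, had 0 reads in exosomes against 337 in cells. Copies were sought only among genes past the filter. Gm10222, Gm13339, Gm28438, Gm11410, Gm4076, Gm11512, Gm11407 and Gm11408 had under 5 RPM in exosomes and passed through the cell library alone. For them a ratio under 1.27 follows from the filter, but not its size. Gm10925, Gm13340 and Gm28437 passed in both libraries. Of the 12 lowest ratios in the comparison that also passed 2-fold in FPKM, 10 were nuclear copies of mitochondrial genes. In BFC012, which shares no library with AFT024, the same copies had 1762 reads in exosomes and 944501 in cells.

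Nuclear genes of the same complexes were not lower to this degree. Of 72 measured nuclear oxidative phosphorylation genes 4 were higher (5.56%) and 14 lower (19.4%) in exosomes, beside 18.5% and 31.0% of all genes. Their log2 ratios ran from -2.23 to 1.89, with a median of -0.28 beside -0.39 for all genes. Atp5a1, the alpha subunit of the ATP synthase, had 17982 reads in exosomes and 26863 in cells, a ratio of 3.71, while Atp5b, its beta subunit, had 3669 and 67224 reads, a ratio of 0.302. Of 74 mitochondrial ribosomal proteins, which are also made from nuclear genes, 2 were higher (2.70%) and 22 lower (29.7%, near the 31.0% of all genes). The median was -0.51.

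The highest ratios belonged to noncoding genes with few reads in cells. Gm16241, a lincRNA gene at chr14:26389199-26395521, had 48211 reads in exosomes and 115 in cells, a ratio of 2323 (1935 to 2815). It lies inside 4933413J09Rik, a lincRNA gene on the same strand with 0 reads in both libraries. Gm28196, at chr2:129948568-129949207, had 1569 and 5 reads, a ratio of 1739 with a wide interval (744 to 5363). Gm20400, at chr6:142161493-142173796, had 35712 and 152 reads and lies in the gene of the organic anion transporter Slco1a6 on the opposite strand, which itself had 3 reads in each library. 1700063D05Rik had 6767 and 71 reads. The library kit does not mark strand, so reads of a gene and of an antisense partner cannot be told apart. Of the measured genes of each type, 41 of 75 lincRNA genes were higher and 15 lower, 36 of 56 antisense genes were higher and 4 lower, and 1789 of 10138 coding genes were higher and 3163 lower. The median log2 ratio was 1.10 for lincRNA, 1.76 for antisense and -0.41 for coding genes. Gm16241, Gm28196, Gm20400 and 1700063D05Rik had under 5 RPM in cells and passed the filter through the exosome library alone. For such genes a ratio above 1 follows from the filter. How many genes of each type passed in this way was not counted, so these counts do not compare the types free of the filter.

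Several of these noncoding genes share sequence, so their reads may be split between copies. Gm12840, a lincRNA gene at chr4:117700188-117700923, had 83340 reads in exosomes and 269 in cells, a ratio of 1717. Gm26809, a lincRNA gene on chromosome 6, had 3904 and 93 reads, a ratio of 233. They align over 513 nt at 97.1% identity. The stretch below is shown because the pair differs there at only 1 base, in capitals; it is printed 5′ to 3′ from GRCm38, Gm12840 from chr4:117700414-117700503 on the plus strand and Gm26809 from chr6:18846418-18846507 on the minus strand, opposite to its annotated strand.
Gm12840: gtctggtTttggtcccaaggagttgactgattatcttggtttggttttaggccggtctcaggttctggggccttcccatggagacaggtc
Gm26809: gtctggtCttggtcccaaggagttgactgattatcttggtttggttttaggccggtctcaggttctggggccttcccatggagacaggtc

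A larger family, aligned over 200 nt or more at 90% identity or more, held Gm10524, RP23-131N18.1, 1700034P13Rik, Gm26880 and 4632415L05Rik, with 136979 reads in exosomes and 2891 in cells. Gm10524 alone had 92391 and 1015 reads, a ratio of 505, and overlaps the zinc finger gene Zfp236 on the opposite strand by 600 nt. Zfp236 had 514 and 1982 reads. RP23-131N18.1 had 41890 and 1611 reads, a ratio of 144. 1700034P13Rik had 2331 and 25 reads and overlaps Vcpip1, a deubiquitinase gene, by 735 nt on the opposite strand. The exception in the family was 4632415L05Rik, with 33 and 224 reads and a ratio of 0.816.

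Another family is related to the major satellite, the tandem repeat of mouse pericentromeric heterochromatin. Its 5 measured genes, Gm10800, Gm26870, Gm10719, Gm10717 and Gm10801, had 2680 reads in exosomes and 47 in cells. All were higher, but all had under 5 RPM in cells and passed the filter through the exosome library alone. Their shared direction therefore follows from the filter. Gm10800 had 1793 and 24 reads, a ratio of 414 (277 to 648). Gm26870, at chr9:3000282-3038313, had 697 and 19 reads, a ratio of 203 (129 to 340). Gm10719 had 73 and 0 reads. The other line had more satellite reads in its exosomes and fewer in its cells: Gm10800 had 15698 reads in exosomes and 4 in cells and Gm26870 5455 and 3. In Gm26870, 78.3% of bases recur at a distance of 234 nt, and the period is printed here from chr9:3038080-3038313 on the minus strand of GRCm38 to show the A-rich repeat, 5′ to 3′.
Gm26870: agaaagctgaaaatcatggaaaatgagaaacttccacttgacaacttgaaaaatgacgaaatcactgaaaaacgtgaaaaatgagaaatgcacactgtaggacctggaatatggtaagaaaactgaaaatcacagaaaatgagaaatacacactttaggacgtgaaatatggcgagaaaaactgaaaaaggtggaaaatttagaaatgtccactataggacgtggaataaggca

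**Figure D2:**
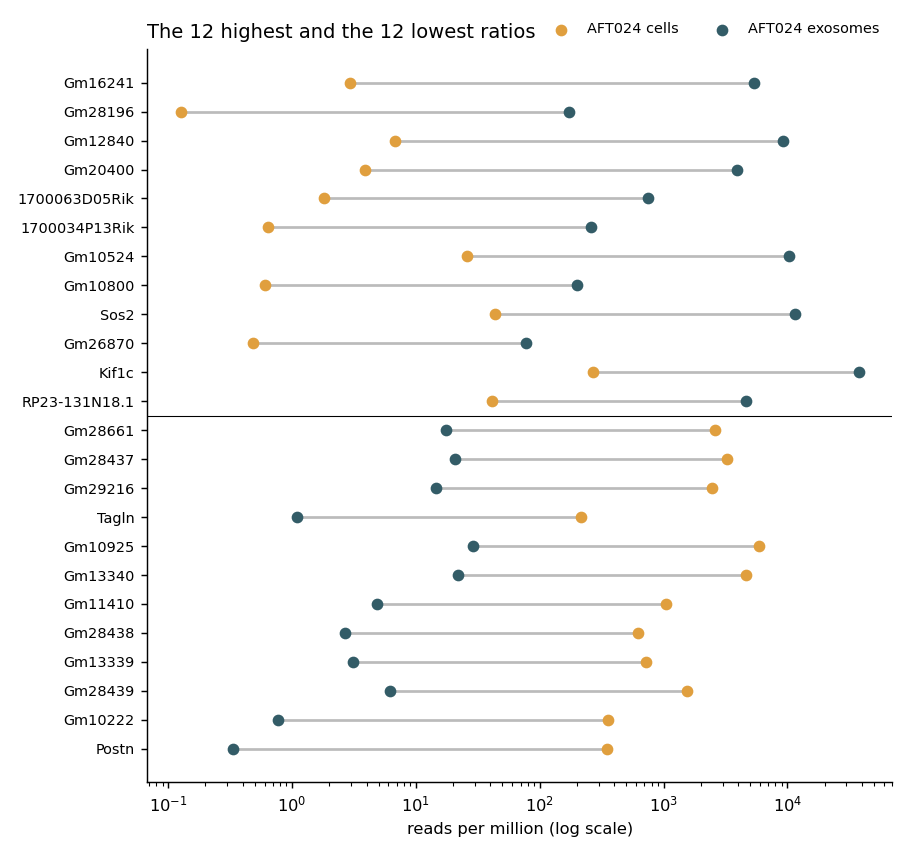
For the 12 genes with the highest and the 12 with the lowest ratios that had at least 500 reads in the higher library and passed 2-fold in FPKM, points give RPM in AFT024 cells and in AFT024 exosomes on a log scale, joined by a line. The upper group is mostly noncoding with Kif1c and Sos2, and the lower group holds 10 nuclear copies of mitochondrial genes with Postn and Tagln.

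Coding transcripts of the exosomes were led by Kif1c, the gene of a kinesin motor that carries vesicles and RNA along microtubules, at chr11:70700548-70731964. It had 339615 reads in exosomes, 3.76% of the library, and 10679 in cells, a ratio of 176 (173 to 180). Sos2, an exchange factor that loads Ras with GTP, at chr12:69583762-69681852, had 103925 and 1711 reads, a ratio of 337 (321 to 353). Ftl1, the ferritin light chain that stores iron, had 81376 and 16058 reads, a ratio of 28.1. Sh3pxd2a, a scaffold of podosomes and invadopodia, had 78197 and 10044 reads, a ratio of 43.1. Kctd10, an adaptor of a cullin ubiquitin ligase, had 77800 and 13900 reads, a ratio of 31.0. The top 10 genes by reads accounted for 11.9% of the exosome library and 4.35% of the cell library, and 380 genes held the first 50% of exosome reads against 1051 in cells. Genes higher in exosomes took 57.2% of the exosome reads and 13.1% of the cell reads.

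Several of these genes belong to a set of messages known to gather at the tips of cell protrusions, where they are carried along microtubules by motors including Kif1c protein itself and anchored with the help of APC. GA-rich stretches in the 3′ untranslated region (3′ UTR) are known to direct this. The list of 11 such genes was compiled after their values had been seen, so its count is a description and supports nothing. All 11 were higher in exosomes, with log2 ratios from 3.35 to 7.46 and a median of 4.63, where 18.5% of all measured genes were higher. In BFC012 all 11 were higher as well, with a median of 4.15. Kif1c and Trak2 had the highest ratios of the list. Trak2, which links mitochondria to kinesin and dynein, had 51716 reads in exosomes and 4557 in cells, a ratio of 62.9. Dynll2, a dynein light chain, had 25413 and 5687 reads, a ratio of 24.8.

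Regulators of small GTPases and of adhesion made up much of the remainder. Net1, a guanine nucleotide exchange factor, had 23583 reads in exosomes and 4685 in cells, a ratio of 27.9. Rab13, a GTPase of vesicle transport to the plasma membrane, had 2719 and 815 reads, a ratio of 18.5. Rassf3, a Ras-association protein, had 2352 and 1281 reads, a ratio of 10.2, the lowest of the list. Kank2, an adaptor at the rim of focal adhesions, had 21760 and 4793 reads, a ratio of 25.2. Pkp4, an armadillo protein of cell junctions, had 17658 and 3903 reads, a ratio of 25.1. Ddr2, a collagen receptor with kinase activity, had 31740 and 14866 reads, a ratio of 11.8. Metabolic enzymes are also on the list: Cyb5r3, a membrane-bound NADH reductase, had 67287 and 19677 reads, a ratio of 18.9, and Inpp1, an inositol phosphatase, had 2041 and 1071 reads, a ratio of 10.6.

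The longest runs of A and G in the 3′ UTRs of 5 members that hold such a run are printed below from GRCm38, 5′ to 3′, because the purine stretch is the feature known for this set. Capitals mark the run and small letters the 3 flanking bases on each side. Rab13 lies at chr3:90225784-90225812 (plus strand), Kif1c at chr11:70729041-70729062 (plus), Trak2 at chr1:58902772-58902793 (minus), Kank2 at chr9:21768640-21768663 (minus) and Rassf3 at chr10:121410647-121410668 (minus). The runs of Sh3pxd2a, at chr19:47266880-47266903 (minus), and of Cdc42bpg, at chr19:6325176-6325205 (plus), come from genes outside the list.
Rab13: tttGAGAAGAGGAAAGGAAGAAGAAAtga
Kif1c: gctGAGGGAAGGAAGAGGGcgc
Trak2: tttAAGAGGGAAAAAGGGGtaa
Kank2: tatGGGAGGAGGAAGGGGGGGcaa
Rassf3: catAAGGGAAGAAAAGGAGccc
Sh3pxd2a: gatGGGAGGGGGGGAGGGGGAtga
Cdc42bpg: cctGAGAGGGGAGGGGAGGAGGGAGAGtga

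Cdc42bpg, a kinase that binds the GTPase Cdc42, was named after its values were seen and had 18066 reads in exosomes and 728 in cells, a ratio of 137. A run was defined as 12 or more bases of A and G with at least 3 of each, on the sense strand. At least 1 run was found in 8 of the 11 listed genes, at 1.10 per kb of 3′ UTR, and none in the annotated 3′ UTRs of Net1, Dynll2 and Pkp4. Sos2, with a 3′ UTR of only 273 nt in the annotation, had none either. Among all 9564 coding genes with at least 100 nt of 3′ UTR, 48.9% held a run, at 0.632 per kb. Of the 200 coding genes with the highest ratios 71.0% held a run, at 0.779 per kb, and of the 200 with the lowest 48.0%, at 0.646 per kb. The share also moved with length, since the median 3′ UTR was 1860 nt in the highest set, 923 nt in the lowest and 1118 nt in all. Within quintiles of 3′ UTR length, from the shortest to the longest, the median log2 ratio was -0.54, -0.75, -0.42, -0.27 and 0.14 with a run and -0.58, -0.62, -0.50, -0.39 and -0.15 without. In quintile 2 it was thus lower with a run, and in quintile 1 fewer of the genes with a run were higher (8.26%) than of those without. Among hexamers, GGAAGG was 1.72 times and GAAGGA 1.71 times as frequent per kb in the highest set as in all coding genes, the largest of 2877 such ratios, and ATATTA 0.530 times. These sets were picked on the ratio, and what the runs do here was not tested.

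Messages of the ribosome were higher in the exosomes as a class. Of 90 genes of cytosolic ribosomal proteins 81 were measured, and 55 were higher and 2 lower, with a median log2 ratio of 1.55, where 18.5% and 31.0% of all genes were called. They took 97424 RPM in exosomes and 36731 RPM in cells. Rplp0, the core of the ribosomal stalk, had 51502 reads in exosomes and 57333 in cells, a ratio of 4.98. Rpl8, a protein of the large subunit near the peptidyl transferase centre, had 45938 and 65812 reads, a ratio of 3.87. Rpl9, also of the large subunit, had the highest ratio of the list at 10.7, with 41980 and 21788 reads. Rps4x had the lowest at 0.235, with 13 and 306 reads. These genes have many processed pseudogenes, and reads may be split with those, so single values are uncertain. In the deposited FPKM the same list had a median log2 ratio of 0.39, with 14 members higher and 9 lower, and in BFC012 the read median was 0.60 with 23 higher and 7 lower.

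Other parts of the translation machinery did not follow the ribosomal proteins. Eef1a1, the elongation factor that brings aminoacyl-tRNA to the ribosome, had 74299 reads in exosomes and 238562 in cells, a ratio of 1.73, the most reads of any gene in cells. Of 12 elongation factors 2 were higher and 6 lower, with a median log2 ratio of -0.96. Eef1b2, an exchange factor of the same complex, had 17103 and 25363 reads, a ratio of 3.74, and Eef1e1, a scaffold of the synthetase complex, 73 and 2839 reads, a ratio of 0.142. Of 44 initiation factors 3 were higher and 20 lower, the median being -0.91. Eif4a1, the helicase that opens messages for scanning, had 1246 and 41505 reads, a ratio of 0.166. A TOP sequence is a pyrimidine tract at the start of a message that couples it to the same growth signals as ribosomal proteins. Among 19 other messages that carry it, 4 were higher (21.1%) and 3 lower (15.8%), beside 18.5% and 31.0% of all genes. The median was -0.16, and this list was also compiled after values were seen. The median of the TOP list is above 0 under upper quartile scaling, at 0.03.

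Messages of matrix proteins, which are made at the endoplasmic reticulum (ER), were low in the exosomes. Of 19 measured collagen chains 16 were lower (84.2% beside 31.0% of all genes) and 1 higher (5.26% beside 18.5%). Their median log2 ratio was -2.90 beside -0.39 for all genes. Col1a1, the main chain of fibrillar collagen, had 470 reads in exosomes and 79061 in cells, a ratio of 0.0330. Col5a2, a chain that starts fibrils, had 417 and 61535 reads, a ratio of 0.0376. The exception was Col20a1, with only 62 and 72 reads and a ratio of 4.77 (3.34 to 6.80). It had 1.83 RPM in cells and passed the filter through the exosome library alone, so a ratio above 1 follows from the filter. Of 29 other secreted matrix proteins 27 were lower (93.1%) and none higher, with a median of -2.79. Fn1, fibronectin, had 3140 and 157662 reads, a ratio of 0.110. Sparc, a collagen-binding glycoprotein, had 1077 and 97899 reads, a ratio of 0.0610. Postn, periostin, at chr3:54361109-54391037, had 3 reads in exosomes and 13717 in cells, the lowest ratio of the comparison at 0.00121 (0.000250 to 0.00354). Agrn, the proteoglycan agrin, was near 1 with 455 and 2349 reads and a ratio of 1.07. Collagens and other matrix proteins together thus had 782 and 1733 summed RPM in exosomes against 8982 and 19020 RPM in cells.

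The machinery of the secretory route showed the same direction with smaller sizes. Of 25 ER chaperones and disulfide isomerases 22 were lower and none higher, with a median log2 ratio of -1.93. P4hb, a disulfide isomerase, had 2963 reads in exosomes and 42951 in cells, a ratio of 0.382. Pdia4, another isomerase, had 58 and 5216 reads, a ratio of 0.0616. Of 26 genes of the translocon, signal peptidase and glycosylation 19 were lower and none higher, with a median of -1.54. Srpr, the docking receptor for ribosomes that make secreted proteins, had 115 and 5667 reads, a ratio of 0.112. The coats of transport vesicles between ER and Golgi were 1 higher and 12 lower of 23, and lysosomal proteins 24 lower and none higher of 32. Sar1a, the GTPase that starts the COPII coat, was the exception among the coats with 4040 and 7564 reads and a ratio of 2.96. In contrast, the cytosolic particle that recognises signal peptides had 1 of 6 proteins higher and 1 lower, with a median of -0.70. That is 16.7% each, beside 18.5% and 31.0% of all genes. Integrins, the receptors for matrix, were 1 higher and 6 lower of 8, with Itgb1 at 877 and 44902 reads and a ratio of 0.108.

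Genes whose proteins are used to recognise exosomes were not higher as RNA. Of 28 measured exosome marker genes none was higher and 16 were lower, with a median log2 ratio of -1.17. Cd81, a tetraspanin of the vesicle membrane, had 105 reads in exosomes and 4408 in cells, a ratio of 0.132. The tetraspanins Cd63, with 519 and 13279 reads, and Cd9, with 435 and 7522, were named after their values were seen and had ratios of 0.217 and 0.320. Anxa2, an annexin that binds membranes, had 14235 and 79592 reads, a ratio of 0.991. The highest ratio of the list was that of Smpd2, a sphingomyelinase, at 1.96, with 330 and 931 reads. Of 26 subunits of ESCRT, the machinery that buds vesicles into endosomes, 4 were higher (15.4%) and 6 lower (23.1%), beside 18.5% and 31.0% of all genes. Their median was -0.34, which turns to 0.05 when the scaling uses only the genes past the filter. Vps37b, a subunit of the first ESCRT complex, stood apart with 3051 and 1718 reads and a ratio of 9.84. Of 41 Rab GTPases 6 were higher (14.6%) and 16 lower (39.0%), and Rab13, described above, was highest.

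Cytoskeletal genes differed among themselves. Of 28 actin and contractile genes 22 were lower and none higher, with a median log2 ratio of -1.75. Actb, cytoplasmic actin, had 4023 reads in exosomes and 165071 in cells, a ratio of 0.135. Tagln, an actin-bundling protein of smooth muscle, had 10 and 8478 reads, a ratio of 0.00654 (0.00313 to 0.0120). Acta2, smooth muscle actin, had 80 and 48812 reads, a ratio of 0.00908, and Myl9, a myosin light chain, 7 and 3067 reads, a ratio of 0.0126; both were named after their values were seen. Filamin did not share this: Flna, which crosslinks actin filaments, had 14027 and 72199 reads and a ratio of 1.08. Of 29 kinesins 7 were higher (24.1%) and 10 lower (34.5%), near the 18.5% and 31.0% of all genes, and their median of -0.34 turns to 0.05 when the scaling uses only the genes past the filter. Kif11, the motor that separates spindle poles, had 245 and 10114 reads, a ratio of 0.134, at the other end from Kif1c. Of 17 dynein and dynactin subunits 2 were higher (11.8%) and 5 lower (29.4%), beside 18.5% and 31.0% of all genes. Those higher were Dynll2 and Dync1li2, the latter with 10632 and 8587 reads and a ratio of 6.86.

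Regulators of small GTPases included some of the highest coding ratios. Fgd3, an exchange factor for Cdc42, had 30102 reads in exosomes and 3207 in cells, a ratio of 52.0. Arhgap11a, a GTPase-activating protein of dividing cells, had 37682 and 7321 reads, a ratio of 28.5. Of 14 Ras exchange factors and GTPase-activating proteins 3 were higher and 3 lower (21.4% each, beside 18.5% and 31.0% of all genes), with Rapgef1, which loads Rap1, at 5324 and 7650 reads and a ratio of 3.86. Among 22 receptor tyrosine kinases 4 were higher (18.2%, near the 18.5% of all genes) and 11 lower, where 31.0% of all genes were.

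Factors by which stroma is known to support HSPC were mostly lower in the exosomes as RNA. Of 32 such genes 19 were measured, and 2 were higher (10.5% beside 18.5% of all genes) and 13 lower (68.4% beside 31.0%), with a median log2 ratio of -2.17 beside -0.39. Cxcl12, a chemokine that holds stem cells in place, had 7936 reads in exosomes and 73395 in cells, a ratio of 0.599 (0.585 to 0.613), the most reads of the list in both libraries. Kitl, the ligand of the receptor Kit on stem cells, had 372 and 2343 reads, a ratio of 0.880. Neither passed 2-fold. Dlk1, an imprinted surface protein made by supportive fetal stroma, had 233 and 29686 reads, a ratio of 0.0435. Wnt5a, a secreted signal, had 2 and 618 reads, a ratio of 0.0179 (0.00217 to 0.0651). Csf1, the macrophage growth factor, had 994 and 25597 reads, a ratio of 0.215. Those higher were Lif, a cytokine of the interleukin family, with 107 and 109 reads and a ratio of 5.44, and Grem1, an antagonist of bone morphogenetic proteins, with 4119 and 7434 reads and a log2 ratio of 1.62. Lif had 2.77 RPM in cells and passed the filter through the exosome library alone, so a ratio above 1 follows from the filter. Wnt5a, with 0.221 RPM in exosomes, passed through the cell library alone. Kitl, Csf1 and Grem1 were named after their values were seen.

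Genes of the cell cycle and of splicing were lower more often than the 31.0% of all genes. Of 30 mitotic genes 1 was higher and 19 lower, with a median log2 ratio of -1.55, and of 34 DNA replication genes 1 was higher and 21 lower, the median being -1.43. Top2a, which untangles DNA before division, had 1225 reads in exosomes and 35335 in cells, a ratio of 0.192. Cenpf, a kinetochore protein, was the mitotic gene that was higher, with 5617 and 6573 reads and a ratio of 4.74. Of 20 hnRNP proteins 1 was higher and 14 lower, and of 12 SR splicing factors none was higher and 9 lower. Srsf5 had the lowest ratio of the SR factors at 0.101, with 219 and 12002 reads. Of 20 long noncoding RNAs that stay in the nucleus or host small RNAs 2 were higher and 8 lower, where 18.5% and 31.0% of all genes were. Xist, the RNA that coats the inactive X chromosome, had 201 and 43076 reads, a ratio of 0.0259, while Malat1, of nuclear speckles, had 1744 and 15441, a ratio of 0.626. Neat1, the scaffold of paraspeckles, had 3350 and 9057 reads, a ratio of 2.05, and Gas5, a host of small nucleolar RNAs with a TOP sequence, 6456 and 13560, a ratio of 2.64. The list thus held both directions. Malat1 and Neat1 were named after their values were seen.

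Metabolic genes ranged from lower to slightly higher. Of 16 glycolytic enzymes 10 were lower (62.5%) and none higher, beside 31.0% lower and 18.5% higher of all genes. Their median log2 ratio was -1.15. Gapdh, the enzyme often used as a reference, had 3022 reads in exosomes and 34668 in cells, a ratio of 0.483, and Pkm, pyruvate kinase, 18631 and 108808 reads, a ratio of 0.949. Of 22 enzymes of the citric acid cycle 11 were lower and none higher, and of 35 proteasome subunits 22 were lower and none higher. Genes of cholesterol synthesis and uptake were an exception, with 7 higher (30.4%) and 1 lower (4.35%) of 23 and a median of 0.40. Mvd, an early enzyme of the pathway, had 591 and 545 reads, a ratio of 6.01. With library size the list stood at 4 higher and 5 lower with a median of 0.06, in deposited FPKM at 0 higher and 7 lower with a median of -0.74, and in BFC012 its read median was -0.42, so the list has no direction that holds across scalings and lines.

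**Figure D3:**
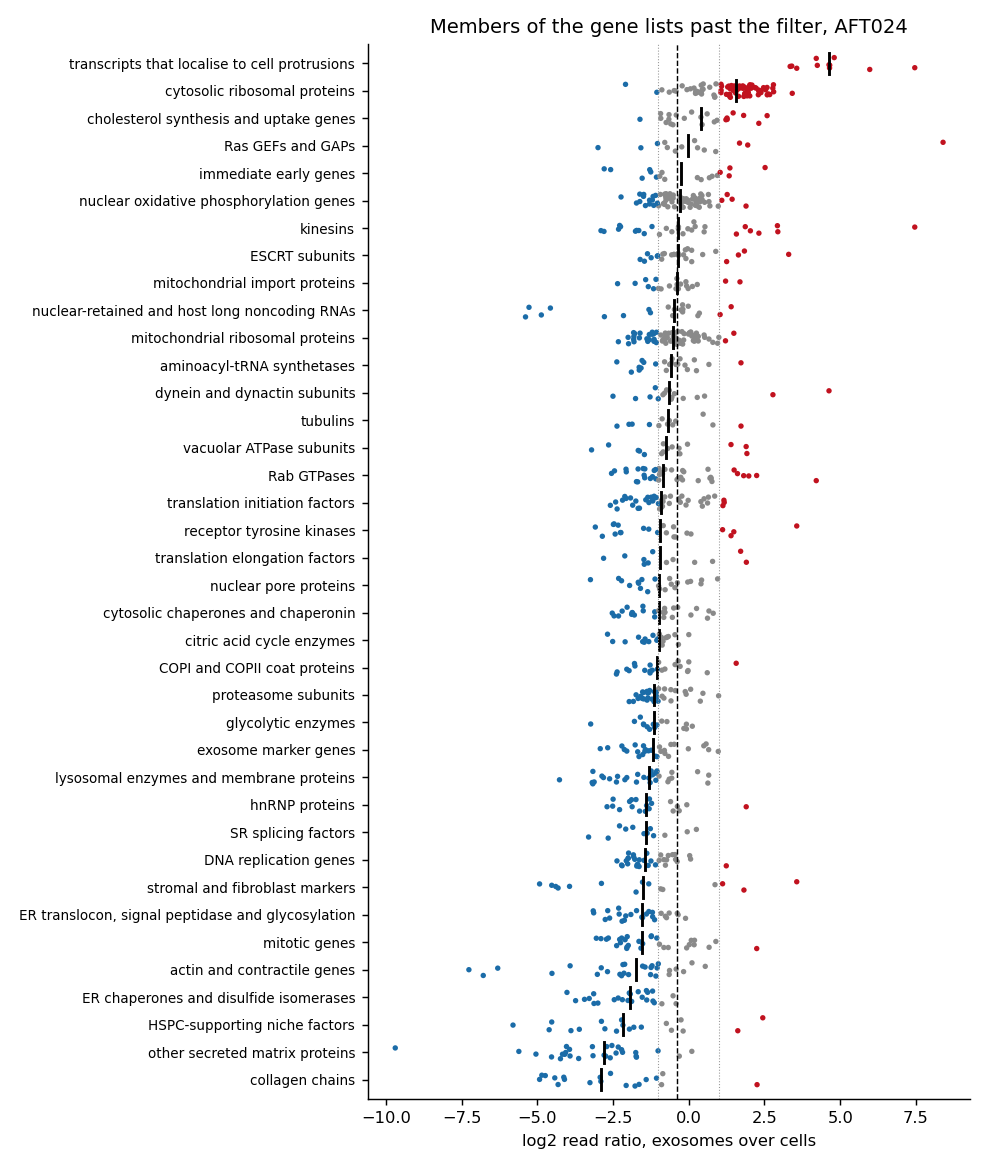
Points give the log2 read ratio of exosomes over cells for each member past the filter, with 1 row per gene list of 10 or more such members, in red where 2-fold or more higher and in blue where 2-fold or more lower. Bars mark list medians and the dashed line the median of all genes at -0.39; protrusion-localised and ribosomal protein messages sit at the top, and matrix proteins and collagens at the bottom.

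Properties of the transcript moved with the ratio across the 10128 coding genes with an annotated transcript, or 9564 of them for the GC of the 3′ UTR. Genes with A- and U-rich 3′ UTRs were lower: in the quintile with the least GC in the 3′ UTR 6.85% were higher and 48.9% lower, and in the quintile with the most 23.4% were higher and 22.2% lower. Long transcripts were higher more often, at 12.3% in the shortest quintile and 30.1% in the longest, and in the latter 21.5% were lower. Genes with few exons went the same way, with 28.4% higher and 20.6% lower in the quintile with the fewest against 15.5% and 37.1% in quintile 4. Spearman's coefficient with the log2 ratio was 0.25 for the GC of the 3′ UTR, 0.20 for the GC of the transcript, 0.17 for its length and -0.10 for the number of exons. These are correlations across genes of the same pair of libraries, which share depth and base composition, and genes are not independent replicates. The level of a gene itself, as the mean of both libraries on the log2 scale, had a coefficient of 0.14 with the ratio. By chromosome, the median log2 ratio ranged from -0.84 on chromosome 13 to -0.17 on chromosome 11.

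**Figure D4:**
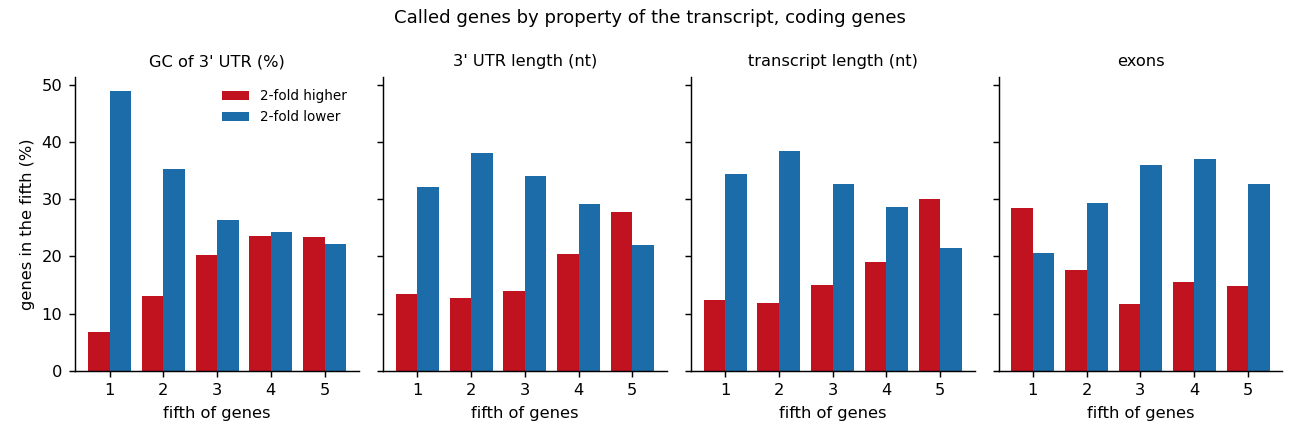
Bars give the percent of coding genes in each quintile of a property that were 2-fold or more higher (red) or lower (blue) in AFT024 exosomes, for the GC content and length of the 3′ UTR, transcript length and exon number, with quintile 1 the lowest. Lower genes were most frequent where the 3′ UTR held the least GC (48.9%) and higher genes where transcripts were longest (30.1%).

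Levels per length came from the deposited FPKM (fragments per kilobase of transcript, scaled to the library), with 1 added before log2. Among genes past the read filter the highest in exosomes were Gm12840 at 25227 FPKM, RP23-131N18.1 at 16944 and Sepw1, a small selenoprotein, at 16671, and in cells Sepw1 at 33080, Mir6236 at 10942 and Gm10925 at 10078. Sepw1 and Mir6236 had only 534 and 1135 reads in exosomes. Ftl1, whose annotated transcript is somewhat longer than that of Sepw1, had 81376 reads and only 10486 FPKM there. In cells Sepw1 had 2873 reads, while Ftl1 had 16058 reads and only 878.8 FPKM. The FPKM of Sepw1 is thus out of proportion to its reads in both libraries and is not usable as a level. The cause was not tested. In FPKM 1143 genes (8.24%) were 2-fold or more higher in exosomes and 7951 (57.3%) lower. Relative to the median gene these were 3192 (23.0%) and 2931 (21.1%). Among 9906 genes past the read filter with an FPKM, 516 of 1849 higher in reads were also higher in FPKM and 2951 of 3043 lower in reads were also lower. Kif1c stood at 3159 FPKM in exosomes and 44.7 in cells and Sos2 at 2214 and 12.96, far apart as in reads. Opposite calls were few, with 12 genes higher in reads and lower in FPKM and 13 the other way, but 159 genes with reads stand at 0 FPKM in exosomes and 147 in cells, Tagln in exosomes among them.

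The same comparison in BFC012 shares no library with that in AFT024 and gives its own values beside these. Of 9902 genes measured in both lines, 20.2% were higher and 29.5% lower in BFC012 exosomes. Of 1725 genes higher in AFT024 exosomes, 1426 were higher in BFC012 as well, which is 82.7% of the AFT024 calls and 71.2% of the 2004 BFC012 calls. Of 3101 lower in AFT024, 2235 were lower in BFC012, 72.1% and 76.6% of the respective calls. Kif1c had a ratio of 171 in BFC012 beside 176 in AFT024, and Sos2 311 beside 337. Genes with opposite calls and both intervals beyond 2-fold included 4 that were named after their values were seen. Dsp, a desmosome protein, had 3 reads in AFT024 exosomes and 253 in cells, against 892 and 757 in BFC012. Jag1, a ligand of Notch, had 10 and 250 reads against 662 and 832. Trabd2b, an inhibitor of Wnt signals, had 121 and 1988 reads against 2784 and 3335. Fmnl1, a formin that builds actin filaments, went the other way with 108 and 69 reads against 21 and 232. In AFT024, Dsp and Jag1 passed the filter through the cell library alone and Fmnl1 through the exosome library alone. The direction of Dsp, Jag1 and Fmnl1 in AFT024 therefore follows from the filter.

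Tagln and Acta2, low in AFT024 exosomes, were chosen for this comparison after their values were seen. Tagln had a ratio of 0.137 there (0.125 to 0.150), with 475 reads in BFC012 exosomes and 10116 in cells, and Acta2 0.132 with 2285 and 50419 reads. Their AFT024 intervals, which cover counting error only, lie below these. Postn and Dlk1 cannot be compared between the lines in this way, since BFC012 cells had only 23 and 9 reads of them. The satellite gene Gm26870 also had its lower ratio in AFT024, at 203 (129 to 340). In BFC012 it was 5302 with a wide interval (1813 to 25719), since cells of that line had only 3 reads. Gm13988 and Gm11331, a pair of pseudogenes that align over 288 nt at 97.6% identity, were high in AFT024 exosomes, with 1771 and 90 reads and 682 and 54 reads and ratios of 109 and 70.0, against 2.22 and 1.17 in BFC012. With 1 merged library of each kind per line, how far such differences between the lines exceed those between repeated preparations was not tested.

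**Figure D5:**
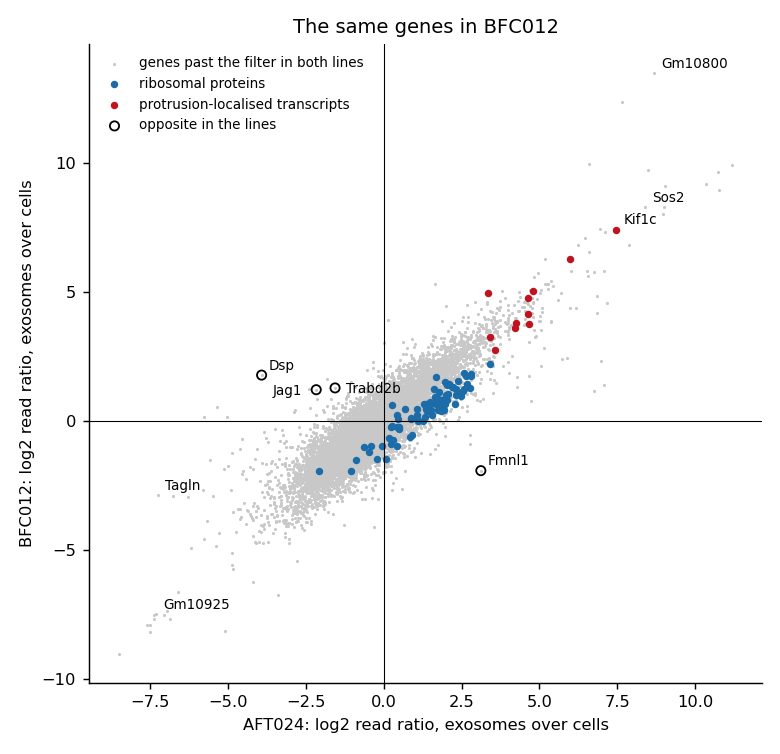
Each point is a gene past the filter in both lines, with its log2 read ratio of exosomes over cells in AFT024 on the x axis and in BFC012 on the y axis. Most genes lie in the quadrants of the same sign, protrusion-localised transcripts (red) are high in both, and rings mark 4 genes with opposite calls.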

How the data were processed

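PolyA RNA was sequenced from AFT024 and BFC012 exosomes and cells. Per the labels' protocols, total RNA was extracted with Trizol, purified on oligo-dT beads and made into libraries with a TruSeq RNA kit that does not mark strand. Bowtie, TopHat and Cufflinks and the build mm10 are named, without roles or versions, in the submitters' processing notes. The program that counted reads is not given in the sources used here. Technical runs were merged, so the authors' deposited tables hold 1 value per group.

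The deposited pair tables hold a normalized signal per gene, the count of reads over a size factor chosen by the authors. Dividing each column by its smallest positive value gave whole reads for 100% of values, within 0.01 reads. The deposited FPKM table of 24544 genes was made by the authors, per the file headers; 94.3% of the kept genes matched it. The deposited p, q and fold columns were not used, 3 rows without a gene identifier were left out, and 0 columns with values of groups were left unused.

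Genes were kept at 5 RPM in at least 1 library. Ratios used median-of-ratios scaling, and a change of 2-fold was counted. A ratio against 0 reads was set against 3 reads. With 1 value per group no model and no test was fitted. The scripts were tested on simulated data. Alternatives in scaling, filter, unit and fold were computed, TMM scaling with a script in Python. Some genes and lists are not reported here. The members, lists and alternatives were chosen with earlier results of these data known. Named genes were the 12 highest and 12 lowest ratios with at least 500 reads in the higher library and 2-fold in FPKM, the 10 with the most reads in each library, and from each list the 2 members with the most reads and those with the highest and lowest ratio. Gm26809 was passed over by this rule, because it stands at 0 FPKM in exosomes.

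Gene structures and sequences came from GENCODE release M21 on GRCm38, the assembly also called mm10; 99.7% of the kept genes matched. Nuclear copies and repeat families were found with blastn 2.17.0. Other steps ran in Python 3.11.15 with pandas 2.3.3, numpy 2.4.6, scipy 1.17.1 and matplotlib 3.10.9.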

Additional observations from a re-analysis of the deposited data

How the results depend on the processing

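The number of genes higher in AFT024 exosomes than in cells was 1949 and the number of genes lower in AFT024 exosomes than in cells was 3262. Across the other read scalings and the filters of 1 and 20 RPM the former ranged from 1413 to 2663 and the latter from 2167 to 4459. The low end of the lower count, 2167, came with scaling over the genes past the filter alone, an alternative chosen after seeing the data, as was a library size without the nuclear copies of mitochondrial genes. Without a filter 5364 genes were higher and 4100 lower. There a gene with 0 reads in exosomes and few in cells is set at the floor of 3 reads. After scaling such a gene can count as higher, so the 5364 may include genes not detected in exosomes. In deposited FPKM plus 1 the counts were 1143 and 7951, after centring on the median gene 3192 and 2931, and at 4-fold 817 and 1013. The number of genes higher by deposited FPKM was 1143 and the number of genes lower by deposited FPKM 7951, and 1324 and 8798 with a pseudocount of 0.1. The median of all genes shifted on the log2 scale by -0.35 with library size, -0.38 with the library size without the nuclear copies of mitochondrial genes, 0.19 with the upper quartile, 0.39 with scaling over the genes past the filter and -1.13 in FPKM. Of 660 alternatives for 44 list medians 588 stayed within the spread of the list, 70 moved beyond it, all in FPKM, and 2 reversed from a median at least 2-fold from 0: without a filter the median log2 ratio of integrins was 0.15 and the median log2 ratio of replication-dependent histones 1.47. Of 70 histone genes 49 had 0 reads in exosomes and 22 had 0 reads in cells. Among 19 integrins 4 had 0 reads in exosomes and 0 had 0 reads in cells. Both unfiltered medians may therefore rest on the floor of 3 reads. Counting medians of any size, the sign changed in 26 alternatives over 12 lists. Of 2739 alternatives for 185 named genes 14 reversed, 130 fell under the fold of their setting and 136 passed it. That fold was 4-fold where calls were made at 4-fold and 2-fold elsewhere. None of the 1110 with another read scaling reversed, but this was fixed in advance. Such a scaling shifts all genes alike, by at most 0.39 on the log2 scale, and reversals were counted only from 2-fold or more. The filter and interval settings leave the ratio of each gene unchanged. The reversals came in FPKM: the log2 ratio of Eif4b was -0.12, the log2 ratio of Eif2d -0.11 and, with a pseudocount of 0.1, -0.12, the log2 ratio of Tuba4a -0.02 and the log2 ratio of Gas5 -0.48. After centring, the log2 ratio of Rpn2 was 1.02 and the log2 ratio of P4hb 0.05. For these reversals the cause was not tested. No paired analysis was possible because each group is 1 merged column, although the labels number the samples 1 and 2, and for the same reason no replicate could be left out. Genes under 5 RPM, and ratios that rest on few reads such as that of Gm28196, are limited by the depth of the exosome library.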

Other observations

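Gene families grouped by the stem of their symbol, a grouping made after the values were seen, gave 44 stems with 20 or more measured genes, where 18.5% of all genes were higher and 31.0% lower and the median of all genes was -0.39. Zinc finger genes named Zfp, many of them repressors of transcription, built from repeated fingers, had 95 of 252 members higher in AFT024 exosomes and 43 lower, with a median log2 ratio of 0.50, and 0.41 in BFC012. The Zbtb genes, zinc finger factors that pair through a BTB domain, had 18 of 35 higher and 1 lower, with a median of 1.04 and 0.89 in BFC012. Among the Trim genes, mostly ubiquitin ligases, 13 of 30 were higher and 4 lower, and the median was 0.48. On the other side, 20 of 33 Ddx genes, RNA helicases, were lower and 2 higher, with a median of -1.14. The Med genes, subunits of the Mediator that links factors to RNA polymerase, had 14 of 29 lower and 4 higher, with a median of -0.98, and the Slc genes, membrane transporters, 64 of 163 lower and 21 higher, with a median of -0.64.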
